A study of Mus musculus with 15 samples.

Results

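H2-Q7 and H2-M2 are nonclassical class I genes of the mouse major histocompatibility complex, and their expression was followed in the striatum after a brain hemorrhage. Both were chosen by name, through the array probe whose deposited accession is a RefSeq transcript of the gene. They are 2 of the 60823 probes on the array that are not control spots, and 2 of the 45 tested probes that could be given a gene symbol. H2-Q7 was read by probe A_51_P262079 and H2-M2 by probe A_51_P191463. In the RefSeq annotation of GRCm38.p6, H2-Q7 (also Qa-2 or Q9) lies on chromosome 17 from 35439140 to 35443773, and H2-M2 on the same chromosome from 37480851 to 37483554. A distance of 2037078 bases separates them.

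The study asked which expression changes mark the effect of BYHWD, the Buyang Huanwu decoction of traditional Chinese herbal medicine, in intracerebral hemorrhage (ICH), a bleed into brain tissue. Total RNA from the ipsilateral striatum (basal ganglia) of male mice was hybridised to 15 one-colour Agilent arrays, 5 per group, at day 14. Sham mice and ICH mice received distilled water by gavage, and BYHWD mice received the decoction in distilled water at 6.19 g/kg once a day for 14 days. All 3 groups were killed under pentobarbital and perfused with saline through the heart, which removes most blood from the vessels. The mouse strain, the age and the way the hemorrhage was made are not given in the sources used here. Nothing in the labels says that the 5 numbered samples of a group are 5 mice. The p-values below therefore reflect only how far these samples differ, which may be technical in part.

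Class I molecules are a heavy chain held together with beta-2 microglobulin, and they show peptides at the cell surface to CD8 T cells and to receptors of natural killer cells. The classical heavy chains H2-K and H2-D are highly variable between strains, whereas nonclassical ones vary less and have narrower tissue distributions. H2-Q7 encodes the Qa-2 antigen of the Q region, which is tethered to the membrane by a lipid anchor, and H2-M2 is a heavy chain gene of the M region. In resting brain tissue class I levels are low, and interferon raises them in microglia, endothelium and other cells through elements just upstream of the start site.

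The promoters are printed because they carry sequence features that the 2 genes share, and no such feature was tested against their levels. Each window runs from 250 bases before to 50 bases after the annotated start, written 5′ to 3′ on the strand of the gene (RefSeq, GRCm38.p6). That of H2-Q7 is chr17:35438905-35439204 on the plus strand and that of H2-M2 is chr17:37483505-37483804 on the minus strand. Capitals mark the longest run of letters found in both windows and the matches to the motifs named below.
H2-Q7: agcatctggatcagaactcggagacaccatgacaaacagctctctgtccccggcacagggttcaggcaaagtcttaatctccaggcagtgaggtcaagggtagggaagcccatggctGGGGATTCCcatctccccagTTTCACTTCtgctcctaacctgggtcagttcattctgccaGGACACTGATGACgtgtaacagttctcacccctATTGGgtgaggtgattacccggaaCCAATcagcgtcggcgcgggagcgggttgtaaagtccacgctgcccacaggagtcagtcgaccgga
H2-M2: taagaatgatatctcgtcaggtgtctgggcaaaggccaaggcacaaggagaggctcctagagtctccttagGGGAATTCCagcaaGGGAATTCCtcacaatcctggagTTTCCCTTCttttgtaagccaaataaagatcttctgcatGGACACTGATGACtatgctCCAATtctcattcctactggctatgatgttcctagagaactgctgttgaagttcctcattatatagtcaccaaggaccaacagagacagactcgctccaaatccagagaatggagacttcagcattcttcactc

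The longest run present in both windows was GGACACTGATGAC, 13 bases long. It lay from base -73 to -61 of H2-Q7 and from base -103 to -91 of H2-M2, counted from the start. Of 32851 mouse promoter windows of this length, 5 held the run on either strand (0.0152%). They belonged to H2-D1, H2-M2, H2-Q4, H2-Q6 and H2-Q7, all of them class I heavy chain genes. H2-Q7 and H2-M2 hold the run by construction, since it was taken from their windows. Apart from them it was found in 3 of 21 class I genes. Aligned end to end, the windows of H2-Q7 and H2-M2 were identical at 48.3% of positions with gaps counted, close to the median of 47.6% for each of them against 22 class I windows. H2-Q7 stood nearest to H2-Q6, also of the Q region, with 74.7% identity, followed by H2-Q4 with 66.8%, H2-D1 with 64.3% and H2-K1 with 63.7%. Genes of the Q region resemble each other closely, and whether the H2-Q7 probe also reads its relatives was not tested. The highest identity of the H2-M2 window was 55.0%, with H2-Q4. Bases G and C made up 56.0% of the H2-Q7 window and 45.3% of the H2-M2 window.

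The core GAANNGAAA, read on both strands, was present in both windows and in 7.52% of all windows. It holds the same GAA and GAAA blocks as GAAANNGAA, the interferon response core named beforehand, but in exchanged order. It was added after the sequences had been seen. It lay on the reverse strand at -113 to -105 in H2-Q7 and at -142 to -134 in H2-M2. Among other class I windows, 6 of 21 also held it (H2-D1, H2-K1, H2-M3, H2-Q10, H2-Q4 and H2-Q6). The core GAAANNGAA itself was in neither window, and it was in 8.56% of all windows. Its absence alone does not show that the windows lack an interferon element, and whether either form acts in these promoters was not tested. Sites of the NF-kappa B family were searched in a narrow and a wider form, the latter added after the sequences had been seen. The wider form GGGNNTTCC was in both windows, 1 time in H2-Q7 from -133 to -125 and 2 times in H2-M2, from -179 to -171 and from -165 to -157. It was found in 5.82% of all windows and in 4 of 21 other class I windows (H2-D1, H2-K1, H2-Q4 and H2-Q6). The narrow form GGGGANTCC (1.19% of all windows, 4 of 21 other class I windows) matched the same bases of H2-Q7 and none of H2-M2. The Y box core CCAAT occurred 2 times in H2-Q7, at -40 to -36 on the reverse strand and at -16 to -12, and 1 time in H2-M2, at -84 to -80. CCAAT is common, being in 37.4% of all windows and in 15 of 21 other class I windows. The cyclic AMP response element TGACGTCA (1.79% of windows) and the X2 box core TGACGCG (1.91%) were in neither window. Apart from the 2 forms of the kappa B core in H2-Q7, no matched stretch overlapped another.

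**Figure D1:**
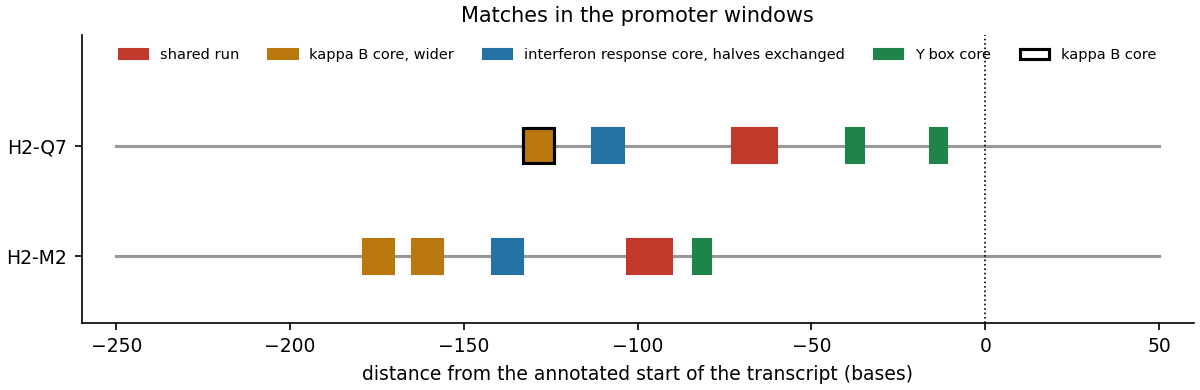
Positions of the matches in the promoter windows of H2-Q7 (upper line) and H2-M2 (lower line), by distance in bases from the annotated start (dotted line). The shared run lies at -73 to -61 in H2-Q7 and at -103 to -91 in H2-M2, and the wider kappa B core is found 1 time in H2-Q7 (outlined where the narrow form matches too) and 2 times in H2-M2.

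The arrays had been read in 3 scans, each with its own scan identifier. All 5 sham arrays were in scan 1 together with ICH 2 and ICH 3, scan 2 held ICH 1, ICH 4 and ICH 5, and scan 3 held the 5 BYHWD arrays. Scan and group therefore cannot be told apart in either comparison with BYHWD, while ICH and sham can be compared within scan 1. The ICH arrays of scan 2 stood apart from those of scan 1, with 21.9% of 51669 probes differing between them (limma adjusted p under 0.05). The signal at the 75th percentile of an array was 257 to 529 units, and 81.4% to 86.2% of the spots on an array were well above background. Precision is limited by having 5 arrays a group. As a sign of RNA integrity, the log2 signal of the 3′ Gapdh control probe minus that of the 5′ probe averaged 0.23 ± 0.15 in sham. It averaged 0.61 ± 0.20 in ICH and 0.49 ± 0.10 in BYHWD (SD, n = 5 per group).

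Each of the 2 probes is printed in 10 spots on every array, so that the error between spots can be read directly. The spots of an array share one RNA sample, labelling and hybridisation, and error from these steps is not seen in them. All 150 spots of each probe were well above background, and none was saturated. The signal of an array, over the spots used, ran from 1179 to 5868 units for H2-Q7 and from 1290 to 3956 units for H2-M2, against a local background of 14.8 to 22.9 units. Among spots of one array the SD of the log2 level had a median of 0.053 for H2-Q7 and 0.062 for H2-M2. Among arrays of one group the pooled SD was 0.465 for H2-Q7 and 0.338 for H2-M2. The spot SD was below the array SD on 15 of 15 arrays for both genes. Both genes varied more between arrays of a group than most named genes did, since the median pooled SD over 45 named genes was 0.220. H2-Q7 ranked 3 and H2-M2 ranked 6 among them.

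**Figure D2:**
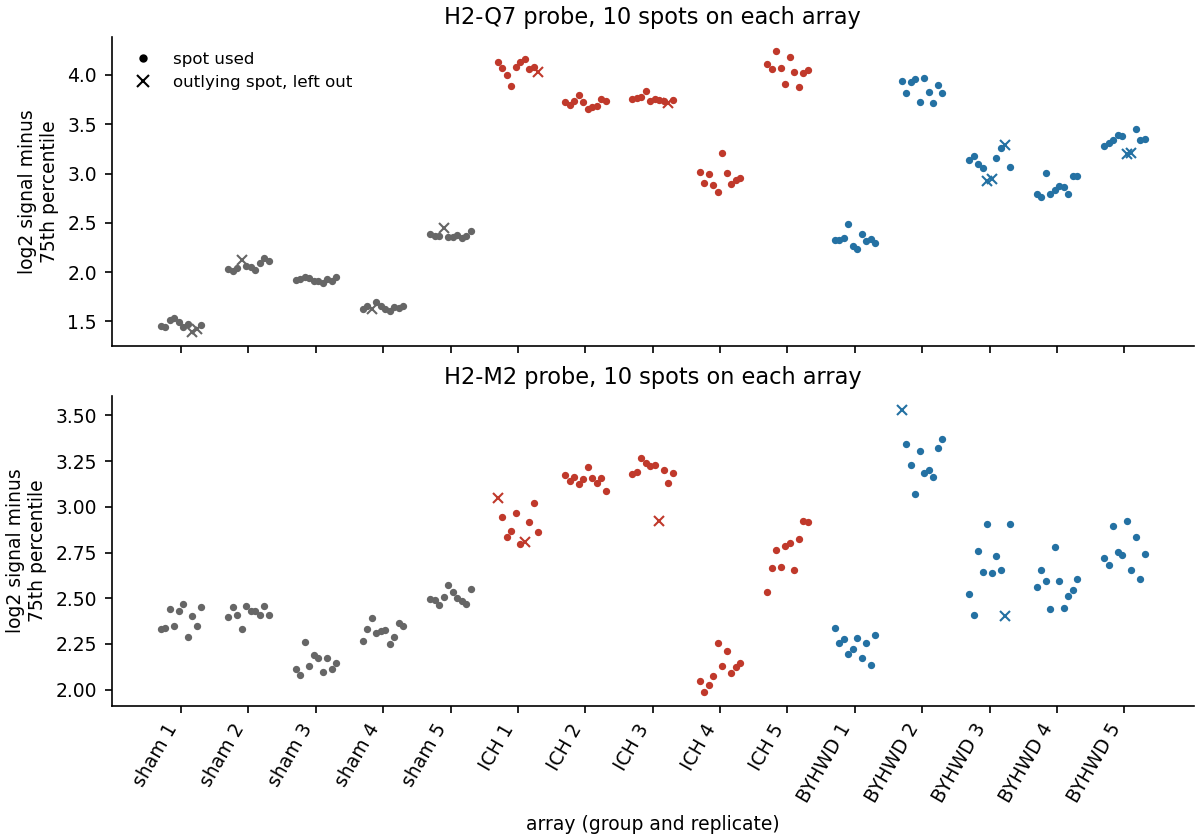
Log2 level of every spot of the H2-Q7 probe (upper panel) and the H2-M2 probe (lower panel) on each array, as log2 signal minus the 75th percentile of the array. The 10 spots of an array lie close together, and the arrays of one group lie farther apart.

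H2-Q7 had the lowest levels in sham. The log2 level, which is the log2 signal minus the 75th percentile of the array, was 1.48 in sham 1, 2.06 in sham 2, 1.92 in sham 3, 1.64 in sham 4 and 2.37 in sham 5. In ICH it was 4.07, 3.72, 3.76, 2.96 and 4.06 in replicates 1 to 5. In BYHWD it was 2.33, 3.86, 3.14, 2.87 and 3.35 in replicates 1 to 5. Every ICH array was higher than every sham array. Of the BYHWD arrays, BYHWD 1 lay within the sham range, BYHWD 4 between sham and ICH, and BYHWD 2, 3 and 5 within the ICH range. A lower level in bulk tissue can come from fewer cells of a type or from less RNA per cell, and these cannot be told apart.

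H2-M2 spanned a narrower range. The log2 level was 2.38, 2.42, 2.15, 2.32 and 2.51 in sham replicates 1 to 5. In ICH it was 2.90, 3.15, 3.21, 2.11 and 2.75, and in BYHWD 2.24, 3.24, 2.69, 2.57 and 2.76. ICH 4 lay below every sham array and the other 4 ICH arrays lay above all of them. BYHWD 1 lay within the sham range and the other 4 BYHWD arrays above it. ICH 4 was also the lowest ICH array for H2-Q7, and BYHWD 1 was the lowest and BYHWD 2 the highest BYHWD array for both genes.

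**Figure D3:**
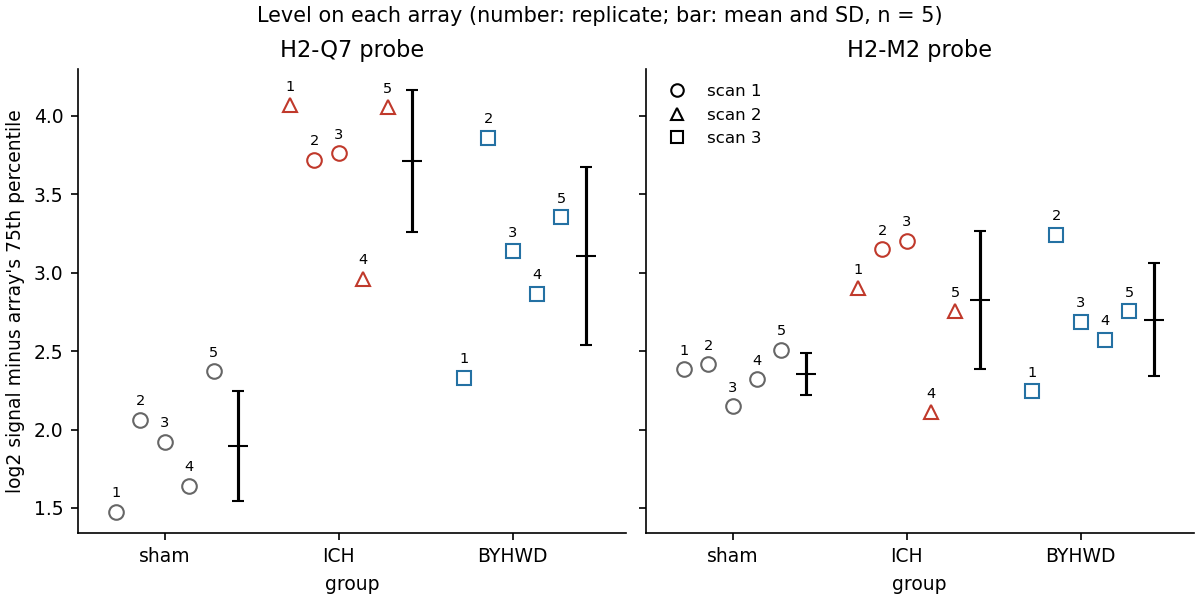
Log2 level of H2-Q7 (left) and H2-M2 (right) on each array, numbered by replicate, with symbols for the scan and bars for the mean and SD (n = 5). The ICH arrays of H2-Q7 lie between 2.96 and 4.07, all above sham, while the groups overlap for H2-M2.

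After hemorrhage H2-Q7 was 3.52-fold higher. Its mean rose from 1.90 ± 0.35 in sham to 3.71 ± 0.45 in ICH (SD, n = 5 each), a log2 difference of 1.82 ± 0.27 SE with a 95% interval of 1.25 to 2.38 (limma adjusted p = 0.00424). The 2-sided exact permutation p was 0.00794, the smallest that 252 groupings of 5 against 5 allow. Over all probes, 4% passed as higher in ICH, and 3.89% had every ICH array above every sham array. The difference lay at the 99.8th percentile of all tested probes and its p ranked 53 of 51669. Taken one spot at a time, the difference ran from 1.65 to 1.98 over the 10 spots. Within scan 1, ICH 2 and ICH 3 exceeded sham by 1.85, and the ICH arrays of scan 2 exceeded sham by 1.80 (limma adjusted p = 0.000458, where 36.4% of probes were called). The difference between the ICH arrays of the 2 scans was -0.05, with an interval of -0.88 to 0.79 (limma adjusted p = 0.95). This mean hides a spread within scan 2. ICH 1 (4.07) and ICH 5 (4.06) lay above the scan 1 arrays (3.72 and 3.76), and ICH 4 (2.96) lay below them. The rise on scan 1 passed limma's test with the spread of all arrays (adjusted p = 0.0447, with 0.35% of probes called), and missed it when the ICH arrays of scan 2 were left out of the fit (difference 1.85, adjusted p = 0.0576).

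H2-M2 did not pass the same test. Its mean was 2.36 ± 0.13 in sham and 2.82 ± 0.44 in ICH (SD, n = 5 each), a log2 difference of 0.47 ± 0.20 SE with an interval of 0.04 to 0.89 (limma adjusted p = 0.14; 2-sided exact permutation p = 0.0635). In that fit 4.94% of probes were called in either direction. The difference was between 0.36 and 0.52 at each of the 10 spots. Its value differed between the scans, although not past the test. ICH 2 and ICH 3, which share the scan of sham, exceeded sham by 0.82 ± 0.23 SE (limma adjusted p = 0.219), and the ICH arrays of scan 2 by 0.23 ± 0.20 SE (adjusted p = 0.391). The ICH arrays of scan 2 were 0.59 ± 0.25 SE below those of scan 1, with an interval of -1.12 to -0.06 (limma adjusted p = 0.108). Without any scaling between arrays the ICH difference of H2-M2 turned to -0.06 (adjusted p = 0.864), in a setting that shifted the median of all probes by -0.48.

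Under the decoction H2-Q7 lay lower than in untreated hemorrhage without passing the test. Its mean was 3.11 ± 0.57 in BYHWD (SD, n = 5), with a log2 difference from ICH of -0.60 ± 0.27 SE and an interval of -1.17 to -0.04 (limma adjusted p = 0.158). Of all probes 6.14% were called in this comparison, and 2.49% as lower in BYHWD. The 2-sided exact permutation p was 0.111, and 4 of 5 BYHWD arrays lay below the ICH mean. The difference was -0.63 against the ICH arrays of scan 1 and -0.59 against those of scan 2. Left-out arrays moved it between -0.79 (without ICH 4) and -0.41 (without BYHWD 1), and it passed in none of these fits. For H2-M2 the BYHWD mean was 2.70 ± 0.36 (SD, n = 5) and the difference from ICH was -0.12 ± 0.20 SE, with an interval of -0.55 to 0.30 (limma adjusted p = 0.706). Against the ICH arrays of scan 1 it was -0.48 and against those of scan 2 it was 0.11, so that its sign depended on which ICH arrays were used.

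Against sham, H2-Q7 was higher under the decoction. The log2 difference was 1.21 ± 0.27 SE (limma adjusted p = 0.0077; 2-sided exact permutation p = 0.0159), and 4 of 5 BYHWD arrays lay above every sham array. In this comparison 17.4% of all probes were called and 12.7% were called as higher, so a call here is common. With scan as a random block the difference was 1.23 and did not pass (limma adjusted p = 0.541), and without scaling it was 0.69 (adjusted p = 0.0601). H2-M2 differed from sham by 0.34 ± 0.20 SE, with an interval of -0.08 to 0.77 (limma adjusted p = 0.246), and by -0.18 without scaling. These comparisons share their sham and ICH arrays, so they are not independent of each other. In order of mean level, ICH came above BYHWD and BYHWD above sham for both genes, except that sham was highest for H2-M2 without scaling. The neighbours ICH and BYHWD did not differ past the test for either gene, and for H2-M2 no pair of groups did.

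**Figure D4:**
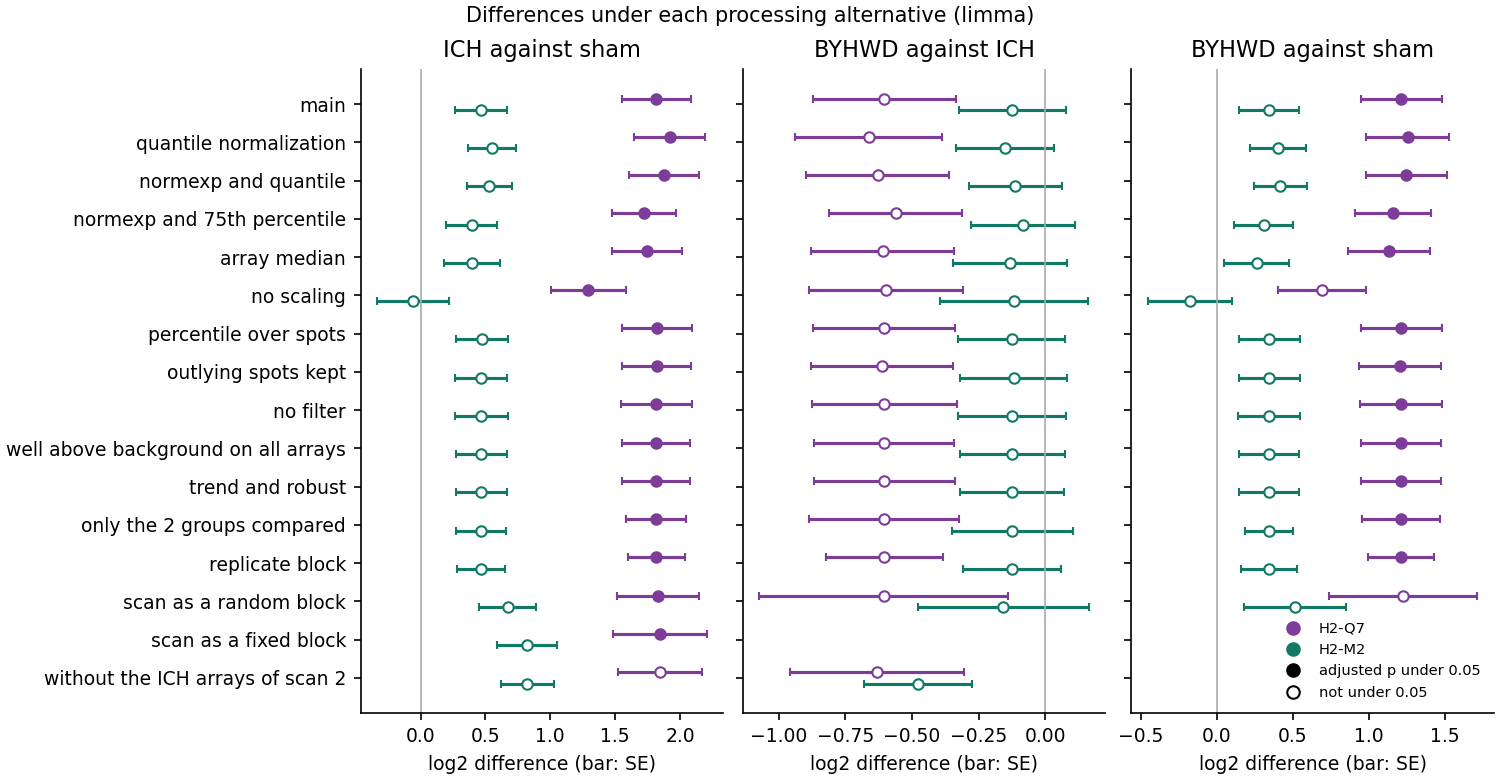
Log2 differences of H2-Q7 and H2-M2 with their SE in the 3 comparisons, as reported (main) and under each processing alternative; filled points have a limma adjusted p under 0.05. H2-Q7 stays above 0 in the first panel in every setting drawn, and H2-M2 falls below 0 without scaling (-0.06).

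The change in H2-Q7 was set against that in H2-M2 on each array. The 2 probes have different sequences, so the level of H2-Q7 minus H2-M2 has no meaning of its own, and only its change between groups is compared. It averaged -0.46 ± 0.32 over the sham arrays, 0.89 ± 0.34 over the ICH arrays and 0.41 ± 0.22 over the BYHWD arrays (SD, n = 5 each). From sham to ICH the change in H2-Q7 exceeded that in H2-M2 by 1.35 log2 units (2-sided exact permutation p = 0.00794; adjusted over 3 comparisons p = 0.0119), with no overlap between the groups. BYHWD exceeded sham by 0.87 (p = 0.00794, adjusted p = 0.0119, exact permutation), again with no overlap, and here group and scan cannot be told apart. How many other pairs of probes separate the groups in this way was not counted. Of single probes, 3.89% had every ICH array above every sham array. BYHWD was 0.48 below ICH on this scale, with a difference of -0.48 (2-sided exact permutation p = 0.0476, adjusted p = 0.0476). The last result was not stable, since it was -0.15 (exact permutation p = 0.571) without the ICH arrays of scan 2. Within ICH, the arrays of scan 1 stood at 0.57 and 0.56, and those of scan 2 at 1.17, 0.85 and 1.30. Within scan 1 the ICH difference from sham was 1.02, with both ICH arrays above all 5 sham arrays (exact permutation p = 0.0952, the smallest that 21 groupings allow).

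Levels of the 2 genes moved together from array to array. Across the 15 arrays Pearson's r was 0.79 and Spearman's rho 0.79 (permutation p = 0.00056 and p = 0.0009, adjusted over 5 relations p = 0.002 and p = 0.0045). Without sham 1 and sham 4, the arrays farthest from the median of H2-Q7, r was 0.81. Over the 7 arrays of scan 1 r was 0.95. These are the sham arrays with ICH 2 and ICH 3, both above all sham arrays for each gene, so this r includes the group difference. Once the mean of each group was removed it was 0.77 (within-group permutation p = 0.00575, adjusted p = 0.0287).

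**Figure D5:**
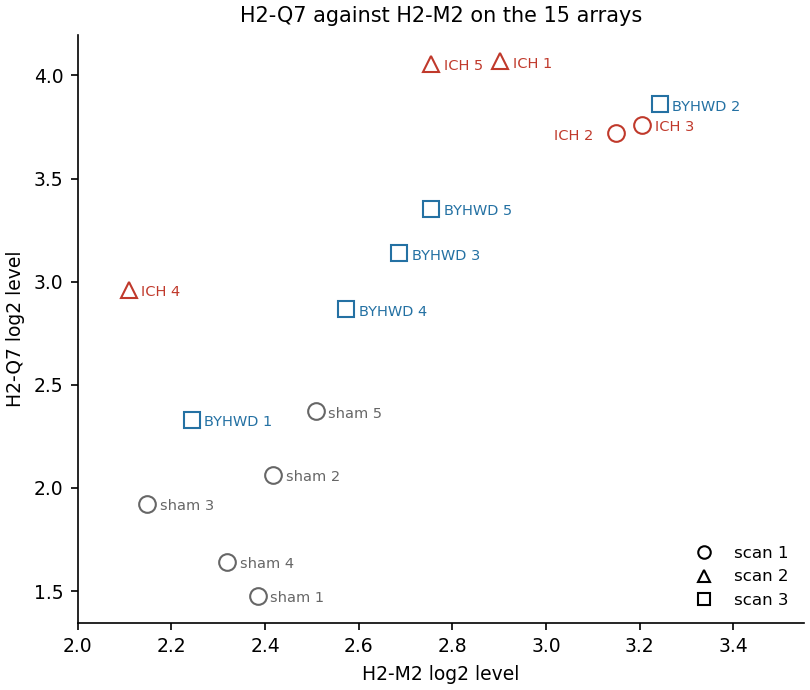
Log2 level of H2-Q7 against that of H2-M2 on the 15 arrays, coloured by group and with a symbol for each scan. The BYHWD arrays rise together from BYHWD 1 (2.24 and 2.33) to BYHWD 2 (3.24 and 3.86), and sham lies lower on the H2-Q7 axis.

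Of the 45 named genes, the 3 with the highest Pearson r to H2-Q7 over the 15 arrays were Gsdmd (0.95), Apoe (0.88) and H2-M2 (0.79), and the lowest was Spats1 (-0.51). For H2-M2 they were Gsdmd (0.84), H2-Q7 (0.79) and Apoe (0.77), and the lowest was Dnajc11 (-0.45). Among 51624 tested probes without a gene name, 229 (0.444%) had an r of at least 0.9 with H2-Q7, the highest being ASMM10AP1B116306613V4 (0.99). Only 1 did so for H2-M2, ASMM10AP1B107881865V4 (0.91). With group means removed, r with Gsdmd was 0.84 for each gene, against 0.77 between H2-Q7 and H2-M2. With Apoe it was then 0.66 for H2-Q7 and 0.75 for H2-M2. Arrays of one group share their treatment and, except in ICH, their scan, so these values are descriptions.

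H2-Q7 was also set against the Gapdh difference between 3′ and 5′ probes, which itself differs between groups. Across the 15 arrays r was 0.77 (permutation p = 0.0008, adjusted p = 0.002), and it was 0.71 without the 2 arrays farthest from the median. It was 0.60 over the 7 arrays of scan 1, which span sham and ICH. With the mean of each group removed it was 0.34 (within-group permutation p = 0.226, adjusted p = 0.566). For H2-M2 r was 0.43 (permutation p = 0.115, adjusted p = 0.144). Each level has the array's 75th percentile subtracted, so its r with that percentile can be negative through the subtraction alone. The permutation p-values for this relation do not allow for that. With the log2 75th percentile of the array, r was -0.65 for H2-Q7 (permutation p = 0.011, adjusted p = 0.0183) and -0.22 for H2-M2 (permutation p = 0.42, adjusted p = 0.42). With the mean of each group removed it was -0.10 for H2-Q7 (within-group permutation p = 0.747, adjusted p = 0.934). For H2-M2 with group means removed, r was 0.03 with the Gapdh difference and 0.30 with the percentile (within-group permutation adjusted p = 0.94 and p = 0.766). Within scan 1, r for H2-M2 was 0.75 with the Gapdh difference. With the percentile it was -0.64 for H2-M2 and -0.51 for H2-Q7 there. The relations of H2-Q7 were thus weaker within groups, and the part of RNA quality or overall signal in its rise was not tested.

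Few other genes of the pathway could be read. Of the gene lists used, none of the other 29 class I heavy chain genes, the 8 peptide loading genes, the 5 immunoproteasome genes, the 11 regulators and the 8 receptors had a probe with a gene name, and neither did the light chain gene. Among cell type markers 1 of 11 for microglia and macrophages (Apoe), 1 of 7 for T and NK cells (Il2), 1 of 5 for B and plasma cells (Mzb1) and 1 of 4 for oligodendrocytes (Mbp) had one. In ICH against sham Apoe was higher by 0.94 (limma adjusted p = 0.0084), with log2 levels of 7.36 to 7.62 in sham and 8.09 to 8.76 in ICH. Mbp differed by 0.19 (limma adjusted p = 0.279). Mzb1 was higher by 0.69 (limma adjusted p = 0.0269), with ICH levels of -3.37 to -3.16 in scan 1 and -2.78 to -2.40 in scan 2, against -3.70 to -3.41 in sham. Il2 was higher by 1.16 (limma adjusted p = 0.0434), and the high levels were those of scan 2. The ICH arrays of scan 2 lay at -3.15 to -2.94 for Il2, and those of scan 1 at -4.85 to -4.61, next to the -5.12 to -4.79 of sham. Mzb1 and Il2 thus had low signals, far below the 75th percentile of each array, where values are less secure. That percentile was 257 to 299 units on the ICH arrays of scan 2 and 424 to 529 units in sham. The part of background and scaling in these 2 differences was not tested. No neuronal (6 genes), astrocyte (4 genes) or endothelial (4 genes) marker of the lists had a named probe, so the striatum label could not be checked with them. With 1 marker for a list, a change such as that of Apoe cannot be assigned to a cell type. The part of changes in cell makeup in the levels of H2-Q7 and H2-M2 was not tested.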

How the data were processed

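Scanner files from 15 arrays, 5 per group, were used. Per the file headers, Agilent Feature Extraction 11.0.1.1 produced them, and the intensity analysed was its processed signal, corrected for background and not scaled between arrays. A deposited table of log2 values (34099 probes, made by the authors in a way not given in the sources used here) has no row for either gene and served only for counts of calls. Outlying spots were left out, replicate spots were averaged on the log2 scale, and each array's 75th percentile over its probes was subtracted. The test covered the 51669 probes that were well above background on at least 5 arrays, without 132 spike-in, custom or negative probes and 169 with an array value missing after outlying spots were left out.

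Groups came from the sample titles. Comparisons were fitted together over all 15 arrays with limma 3.58.1 (R 4.3.3; lmFit and eBayes, 2-sided), with Benjamini-Hochberg adjusted p under 0.05 as the threshold. Single values were also tested with 2-sided exact permutation tests. Of 50 probes with an accession, 46 matched a gene in the RefSeq table (GRCm38.p6), and 45 of these were tested. The probe sequences are not used here, so whether the H2-Q7 probe also reads its near-identical relatives is not known. Named genes were both members, the 3 most alike and 1 least alike named genes, and list members with a probe. The members and lists were chosen with earlier results of these data known. Simulated arrays for ICH against sham (51669 probes, 200 changed at each fold) gave recoveries of 24% at 1.5-fold, 75% at 2-fold and 96.5% at 4-fold, with 4, 13 and 9 false calls. Their noise was normal and independent between probes, with the same SD for a probe in all groups and no scan effect. The real arrays differ by scan, so these rates need not hold for them. Alternatives covered background correction, scaling, filter, variance model, blocks and left-out arrays. Replicate numbers come from the titles. Same-numbered arrays did not deviate together (15 pairs, r of -0.34 to 0.09). This cannot show that samples are unpaired, because group and scan are entangled, and the labels do not say whether the numbers pair them.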

Additional observations from a re-analysis of the deposited data

Results flagged for a closer look

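No level of H2-Q7 or H2-M2 stood apart from its group by the measure used, which divides the gap between the extreme array and its nearest neighbour by the range of the group. Of 30 sets of 5 arrays checked, 2 passed its limit, and chance alone passes about 1 in 20. Among the marker genes, Apoe on BYHWD 1 had a ratio of 0.717, with a log2 level of 7.81 against 8.45 to 8.70 on the other BYHWD arrays. BYHWD 1 was also the lowest BYHWD array for both class I genes. Mbp on sham 4 had a ratio of 0.785, with 7.82 against 8.14 to 8.22 on the other sham arrays.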

How the results depend on the processing

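H2-Q7 against sham in ICH kept its direction and its call in 15 of 16 alternatives (log2 difference 1.29 to 1.92), missing it without the ICH arrays of scan 2 (1.85, limma adjusted p = 0.0576). H2-Q7 in BYHWD against sham kept its call in 12 of 14, and missed it with scan as a random block (1.23) and without scaling (0.69). H2-M2 reversed without scaling, to -0.057 in ICH against sham and -0.18 in BYHWD against sham. With single arrays left out, H2-Q7 ranged over 1.71 to 2.01 in ICH against sham, -0.79 to -0.41 in BYHWD against ICH and 1.03 to 1.41 in BYHWD against sham, and H2-M2 over 0.37 to 0.65, -0.30 to -0.01 and 0.21 to 0.46. No call of either gene changed. H2-Q7 minus H2-M2 ranged over 1.24 to 1.43, -0.56 to -0.38 and 0.76 to 0.95. Its BYHWD against ICH difference lost its call in 6 of 10 of these settings, with quantile normalization (-0.51, exact permutation p = 0.0556) and without the ICH arrays of scan 2 (-0.15). Its ICH against sham difference was 1.02 there. These last 2 values rest on 2 ICH arrays; against 5 arrays the smallest exact p is 0.0952, so neither could pass. The cause of the other changes was not tested.

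Counts of called probes moved more. For ICH against sham, 2555 probes (2066 higher, 489 lower) became 19605 with normexp and the 75th percentile, 22016 without scaling (509 higher, 21507 lower), 1697 with the array median, 163 in the deposited table, 616 with only the 2 groups, 359 and 181 with scan as a random and as a fixed block, and 27 without the ICH arrays of scan 2. For BYHWD against ICH, 3174 became 5105 with normexp and quantile, 1352 with normexp and the 75th percentile, 1740 with only the 2 groups, 49 without scaling and 1 with the random block. For BYHWD against sham, 8972 (6541 higher, 2431 lower) became 20486 with normexp and the 75th percentile, 4955 in the deposited table, 21739 without scaling and 3 with the random block, and 8345 (4934 higher, 3411 lower) with quantile normalization. With single arrays left out the counts ran from 438 to 10389, 953 to 6323 and 5518 to 9537. With the replicate number as a block, H2-Q7 in ICH against sham was 1.82 (limma adjusted p = 0.00234), no call of either gene changed, and the counts were 1159, 601 and 6112. Array median, unscaled and spot-based percentile settings, outlying spots kept and normexp on the median spot signal were chosen after seeing the data. So were the fits that split the ICH arrays by scan, with their p-values, and the permutation within groups. The wider kappa B core and the exchanged interferon core were also added then.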
